A study of Mus musculus with 6 samples.

Results

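Cytosolic ribosomal proteins are the protein parts of the ribosomes that translate nuclear-encoded messages. Their genes were taken from the deposited expression table by name. A row was a member if its type was protein-coding and its symbol was Rpl or Rps with a number, with at most 1 of the letters a, x, y or l and further digits after it, or was Rplp0, Rplp1, Rplp2 or Rpsa. Longer endings, as in Rpl36al, Rps27rt or Rpl34-ps1, were not taken. The rule itself uses names and types only. That gave 84 of 24537 rows, which were 49 genes of the large subunit, 32 of the small subunit and the 3 stalk proteins. Of these, 81 reached a TPM of 1 in 3 or more libraries and were tested, Rpl39l was below that filter, and Rpl3l and Rpl10l were listed at 0 in every library. RNA was sequenced from regulatory T cells (Tregs) of mouse colon, 3 libraries labelled REV-ERB KO and 3 labelled REV-ERB WT. REV-ERB is a nuclear receptor of the circadian clock that represses transcription. All 6 libraries came from mice with colitis raised by TNBS, a hapten, which was put on the skin (150 µl of a 1% solution) and 7 days later given into the rectum (100 µl of a 2.5% solution). The sources used here do not name the allele, the cell type in which it is deleted, the sort, or the strain, age and sex of the mice. The labels do not say that replicates are separate animals, so p-values measure the spread between these libraries, which may be technical.

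A ribosome is built from a small subunit, which reads the message, and a large subunit, which joins amino acids. Each subunit takes 1 copy of most of its proteins, and the stalk of the large subunit, which calls in elongation factors, takes Rplp0 and paired copies of Rplp1 and Rplp2. Most of these messages start with a run of pyrimidines, the terminal oligopyrimidine or TOP start, through which mTOR controls their translation. T cells make many ribosomes when they are activated and grow.

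The levels of the REV-ERB genes were looked at first. Nr1d1, which encodes REV-ERB alpha, had 169, 154 and 141 TPM in the libraries labelled KO, against 66.3, 104 and 88.2 TPM in those labelled WT, so this transcript was higher under the label KO. Nr1d2, which encodes REV-ERB beta, averaged 68.8 ± 18.2 TPM under the label KO and 61.02 ± 10.04 TPM under the label WT (SD, n = 3 each). The sources used here do not say which exons a deletion would remove, so these levels cannot check the label. The directions below are those of the labels. The Treg marker Foxp3 was present in every library, at 195, 171 and 235 TPM under the label KO and 451, 664 and 590.2 TPM under the label WT. Reads recovered from the table summed to between 12641843 and 15890621 in the libraries labelled KO and between 9794474 and 12122569 in those labelled WT, so every library labelled KO was deeper.

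The 84 genes took a slightly larger mean part of the transcript pool in the libraries labelled KO, and the groups overlapped. Their TPM summed to 47302, 42337 and 48551 in the libraries labelled KO 1, 2 and 3, against 43942, 38751 and 38421 in those labelled WT 1, 2 and 3. The means were 46063 ± 3287 and 40371 ± 3097 (SD, n = 3 each), a ratio of 1.14 for KO over WT. WT 1 lay above KO 2, while KO 1 and KO 3 lay above all 3 WT libraries. As a share of all TPM listed, the members took 7.16 ± 0.518% in the libraries labelled KO and 6.33 ± 0.436% in those labelled WT.

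Both subunits showed the same order of libraries. The large-subunit genes summed to 20430.4, 18309 and 21049.6 TPM in the libraries labelled KO, against 19103, 17015 and 16884 TPM in those labelled WT. The small-subunit genes summed to 21185, 18838 and 21603 TPM under the label KO, against 19626, 17396 and 17331 TPM under the label WT. The ratio of large to small stayed close to 1 in every library, at 0.964, 0.972 and 0.974 in the libraries labelled KO and 0.973, 0.978 and 0.974 in those labelled WT. The 3 stalk genes summed to 5686, 5190.1 and 5898 TPM in the libraries labelled KO, against 5212, 4339.6 and 4206 TPM in those labelled WT, with KO 2 just under WT 1. Set against the members as a whole, the stalk genes took 12.02, 12.3 and 12.1% in the libraries labelled KO, against 11.9, 11.2 and 10.9% in those labelled WT, and here the groups did not overlap.

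**Figure D1:**
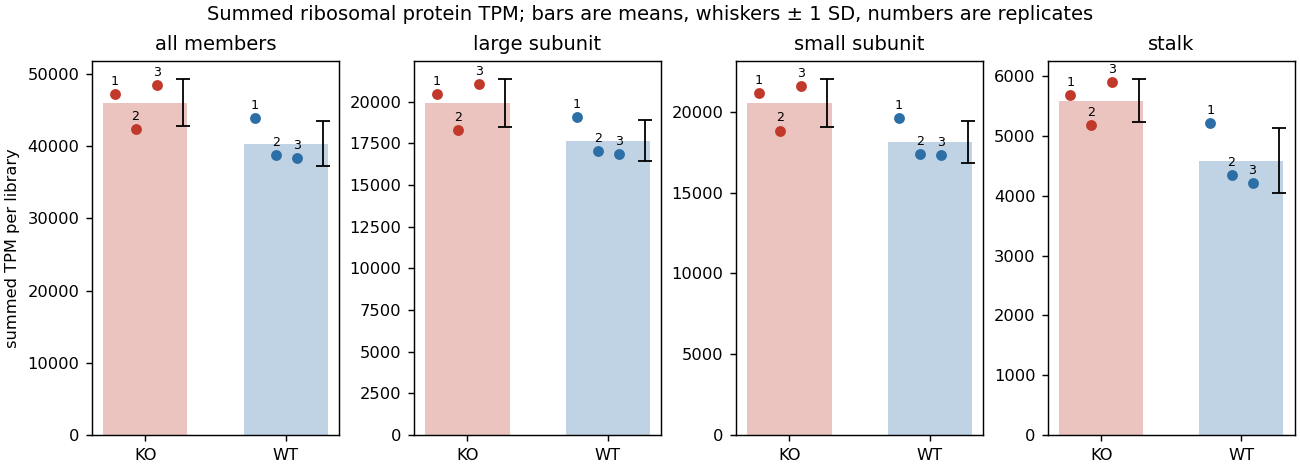
Summed TPM per library over all 84 genes, and over the large-subunit, small-subunit and stalk genes (vertical axes, from 0), for the libraries labelled KO (left) and WT (right). Points are libraries with their replicate number, bars are means and whiskers 1 SD (n = 3 each), and in each panel KO 2 is the lowest KO library and WT 1 the highest WT library.

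Although a ribosome holds these proteins in fixed numbers, the listed levels of their messages spanned a wide range per length. The median member averaged 235 TPM over the 6 libraries, against 16.4 TPM for the 13211 rows tested. Small-subunit genes had a median of 408 TPM and large-subunit genes one of 198 TPM. Of the 84 genes, 16 averaged 1000 TPM or more, 51 averaged 100 TPM or more, 6 lay between 50 and 100 TPM, and 27 lay under 50 TPM.

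The 5 highest members came from the stalk and from both subunits. Rplp1, a stalk protein, averaged 2448 ± 159 TPM under the label KO and 1963 ± 259 TPM under the label WT (SD, n = 3 each, here and below). Rps9, which lies where the message enters the small subunit, averaged 2180.2 ± 108 and 1794 ± 155 TPM in KO and WT. Rpl32, a large-subunit protein, averaged 2129.8 ± 166 and 1889 ± 172 TPM in KO and WT. Rpl4, which lines the tunnel through which the new chain leaves, averaged 2095 ± 176 and 1849.8 ± 69.00 TPM in KO and WT. Rps15, a protein of the small subunit's head, averaged 1998 ± 110.2 and 1735 ± 155 TPM in KO and WT. Within each label, neighbours in the order of means differed by less than 1 SD, other than Rplp1 above the rest under the label KO. Rpl32 overlaps Cand2 and Rps15 overlaps Bc1 on the opposite strand, and reads of such pairs cannot be told apart where strand was not used.

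The spread between replicates was small for the abundant members. Over the 51 genes of at least 100 TPM, the median coefficient of variation was 8.24% in the libraries labelled KO and 8.26% in those labelled WT. Over the 24 tested genes under 50 TPM it was 13.9% under the label KO and 12.3% under the label WT.

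**Figure D2:**
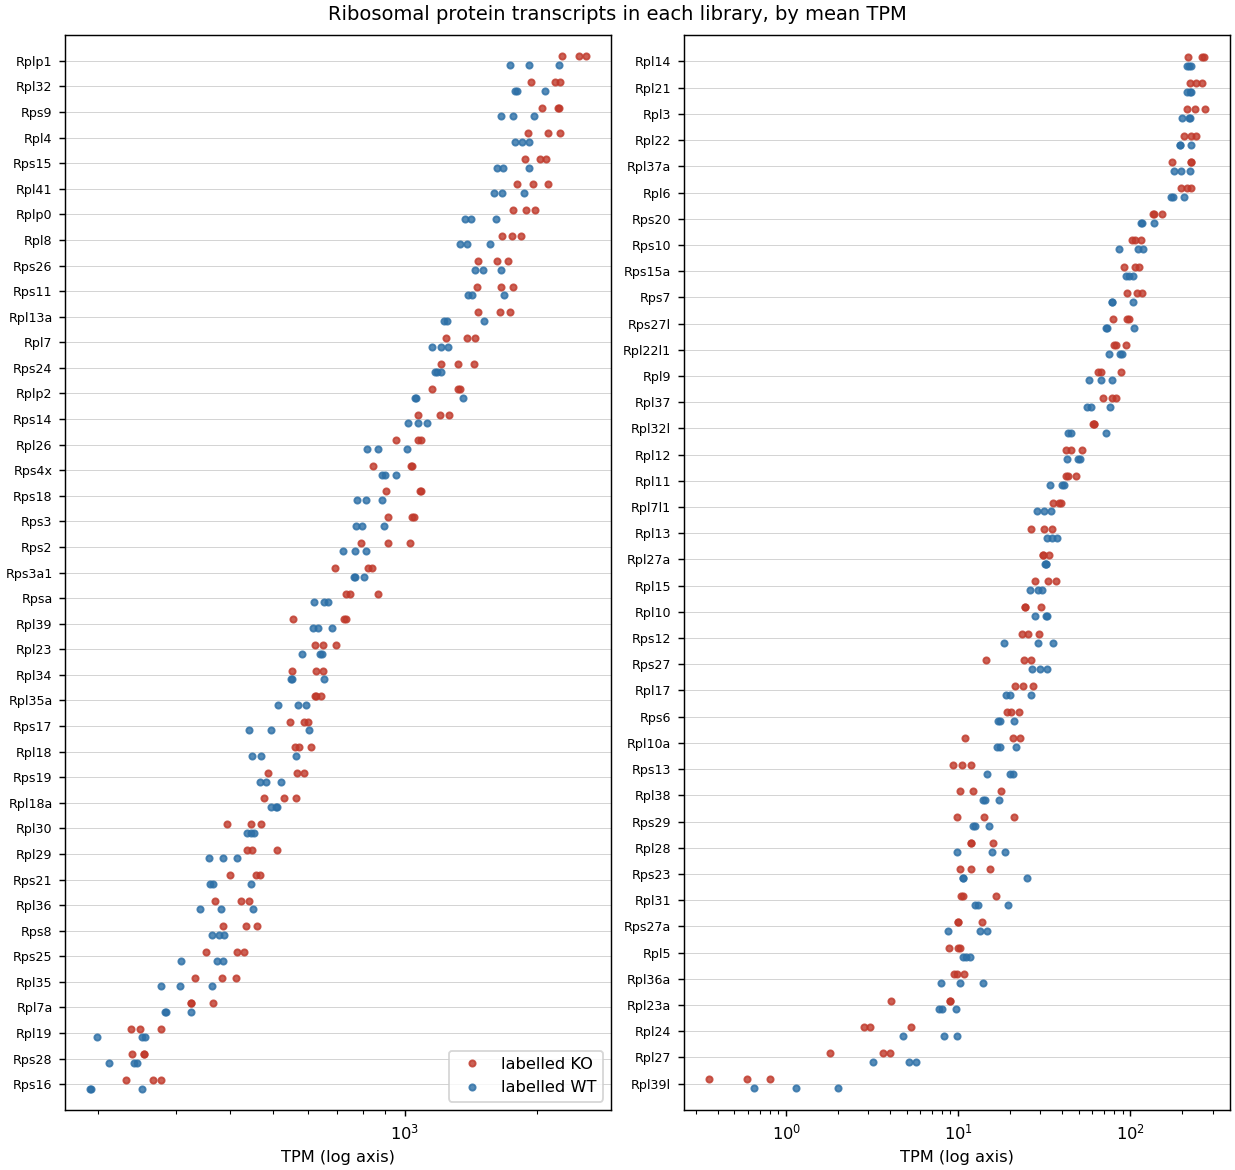
TPM (log axes, with a range of their own in each panel) of ribosomal protein genes above 0 in each library (1 is not drawn), ordered by mean level, with libraries labelled KO in red and those labelled WT in blue. The levels run from under 5 TPM to over 1000 TPM, and the 6 libraries of a gene lie close together beside that range.

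Genes under 50 TPM included core parts of the ribosome. The annotated transcripts matched to them had a higher median share found in other genes than those matched to the abundant members. Ribosomal protein genes have many processed pseudogenes, copies of the spliced message elsewhere in the genome. Each member's transcript was cut into windows of 50 bases, and each window was looked up in the transcripts of other genes of GENCODE M21 (83 of 84 members were matched; Rpl32l was not). Genes whose span overlaps the member's own were left out, so the share of a member with an overlapping copy may be too low. At least 1 window was found elsewhere for 80 of the 83, and over 50% of the windows for 40 of them. For the 24 matched and tested genes under 50 TPM the median share of windows found elsewhere was 59.6% (range 9.19 to 92.1%), against 41.6% (up to 86.7%) for the 51 genes of at least 100 TPM. With windows of 100 bases, a length chosen after seeing the data, the medians were 56.7% and 25%. For some members the matched GENCODE transcript differed in length from the row of the expression table, so the shares depend on the transcript used. It had 964 bases against 434 for Rplp2, 1613 against 830 for Rps24, and 1242 against 629 for Rpl12, which averaged under 50 TPM. The effect of this on the medians was not tested. Spearman's rho between the share and the mean level was -0.17 at 50 bases and -0.38 at 100 bases over 83 members, which is a description, since members share libraries and the copies are related. The sources used here do not say how reads with several matches were counted, so the levels of members with many copies are uncertain. Besides, 36 of the 84 spans overlap another row of the table, such as a small nucleolar RNA. The part of these copies in the low levels was not tested.

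The stretches below show how such copies read. They are coding bases from GENCODE M21 on the build GRCm38, written 5′ to 3′ and numbered from the first base of the start codon. The capitals mark a window of 50 bases, chosen in each gene for its number of matches in other genes. They were chosen to set members under 50 TPM with lower values under the label KO (Rpl24, Rps13) beside abundant ones (Rplp0, Rps3).
Rpl24 (chromosome 16, coding bases 239 to 308): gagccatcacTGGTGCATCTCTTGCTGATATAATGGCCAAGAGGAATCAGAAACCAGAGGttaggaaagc
Rps13 (chromosome 7, coding bases 112 to 181): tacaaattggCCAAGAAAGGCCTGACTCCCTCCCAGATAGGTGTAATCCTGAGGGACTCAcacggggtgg
Rplp0 (chromosome 5, coding bases 63 to 132): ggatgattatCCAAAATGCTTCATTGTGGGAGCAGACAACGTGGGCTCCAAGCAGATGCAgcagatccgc
Rps3 (chromosome 7, coding bases 253 to 322): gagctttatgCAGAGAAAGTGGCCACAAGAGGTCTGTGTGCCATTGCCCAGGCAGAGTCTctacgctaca
The capitals of Rpl24 were found letter for letter in 4 other genes and those of Rps13 in 5, all of them pseudogenes. Those of Rplp0 were found in 5 other genes, of which 4 were pseudogenes. Those of Rps3 were found in 1 other gene, a pseudogene, and it held all of the windows of Rps3 that were found elsewhere.

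Rows of such copies, and of other rows with a ribosomal protein symbol that the naming rule left out, ran from near 0 to high levels in the table. Rpl14-ps1, a pseudogene of Rpl14, averaged 1041 ± 39.6 TPM under the label KO and 868 ± 114 TPM under the label WT, while Rpl14 averaged 249 ± 28.1 and 219 ± 6.02 TPM in KO and WT. Rpl37rt, a copy made by retrotransposition, averaged 543 ± 47.03 and 479 ± 57.8 TPM in KO and WT, and Rpl37 averaged 76.9 ± 6.69 and 63.8 ± 10.9 TPM. Under both labels, the copy's row exceeded its parent's row for both pairs. Rpl34-ps1, which overlaps Rpl34 on the same strand, averaged 727 ± 60.1 and 698 ± 69.1 TPM in KO and WT, beside 609 ± 50.4 and 585 ± 58.4 TPM for Rpl34. The values of Rpl34-ps1 and Rpl34 kept nearly the same proportion in every library. Both rows may thus count the same reads, and they cannot be read as separate levels of a copy and its parent. Rpl36al averaged 296 ± 28.9 and 257 ± 18.8 TPM in KO and WT, beside 10.003 ± 0.719 and 10.7 ± 3.04 TPM for Rpl36a. Other copies were below their parents, some of them far below. Rps19-ps3 averaged 1.86 ± 0.466 and 2.40 ± 0.498 TPM in KO and WT, beside 548 ± 54.1 and 490.0 ± 27.7 TPM for Rps19. Rps15a-ps4 averaged 10.98 ± 3.19 and 12.1 ± 4.28 TPM and Rps15a-ps6 12.2 ± 0.991 and 10.7 ± 1.11 TPM in KO and WT, beside 104 ± 10.7 and 98.5 ± 4.61 TPM for Rps15a. Rpl31-ps12 averaged 0.164 ± 0.284 and 1.86 ± 1.68 TPM in KO and WT. Rps27rt averaged 16.1 ± 5.60 and 18.3 ± 0.894 TPM in KO and WT, beside 21.6 ± 6.32 and 29.8 ± 3.16 TPM for Rps27. Rplp2-ps1 averaged 848 ± 45.3 and 725 ± 87.9 TPM in KO and WT, beside 1269 ± 101 and 1157 ± 173 TPM for Rplp2. Rps4l, typed as a pseudogene in the table and so no member, averaged 8.89 ± 3.43 and 11.6 ± 1.91 TPM in KO and WT.

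**Figure D3:**
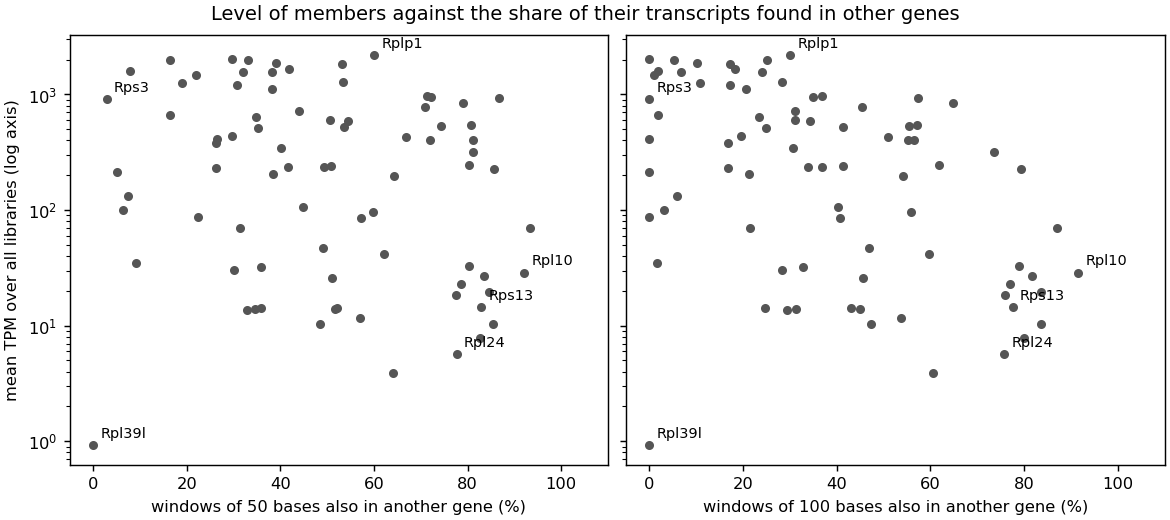
Mean TPM of members over the 6 libraries (vertical axis, log scale) against the percent of its transcript windows found in other genes, for windows of 50 bases and of 100 bases. The genes listed at 0 and 1 other member are not drawn. Members under 50 TPM have medians of 59.6% and 56.7%, and those of at least 100 TPM have medians of 41.6% and 25%, with wide overlap between them.

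For the comparison of genotypes, most ribosomal protein genes were listed slightly higher in the libraries labelled KO, and no single member passed the test. The log2 difference, KO minus WT on log2(TPM + 1), was above 0 for 62 of the 81 tested members (76.5%), where 49.5% of all rows tested were above 0. The median difference was 0.14 (middle 50% from 0.04 to 0.21, range -0.86 to 0.36), against -0.003 for all rows tested. In limma's moderated test 0 of 81 members had an adjusted p under 0.05, as did 0% of all 13211 rows, and voom on the recovered reads also gave 0 members and 0% of rows. The smallest adjusted p of a member was 0.162, against 0.0678 over all rows. In bulk RNA, fewer cells of a type and less RNA per cell cannot be told apart.

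At an unadjusted limma p under 0.05, 8 members were higher and 2 were lower in the libraries labelled KO, where 7.8% of all rows were higher and 7.86% lower. With voom, 15 members were higher and 1 was lower, beside 9.43% and 7.05% of all rows. These counts turned on single libraries and on the settings. The 8 became 23 without WT 1, where 9.56% of all rows were higher at that p, and 12 without KO 2 (4.15% of rows). They became 3 without KO 1 (5.77%), 1 without KO 3 (10.4%), 1 without WT 2 (3.97%) and 0 without WT 3 (5.88%). With no filter on low rows there was 1 (6.57% of rows), and with no variance trend there were 2 (7.3%). The 2 that were lower became 3 without KO 1 (5.42% of rows), and 1 each without KO 2 (4.84%), KO 3 (12%), WT 1 (10.4%) and WT 2 (4.32%). Without WT 1, 14 of all rows (0.106%) had an adjusted p under 0.05 and no member did.

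Differences above 0 were more frequent among the members of at least 100 TPM than among the tested members below that level. Of the 51 members of at least 100 TPM, 50 (98%) had a difference above 0, where 53.6% of the 1196 rows of that level did. The exception was Rpl30, at -0.03, and it is named after its value was seen. The median over the 51 was 0.18, against 0.02 for the rows of that level. Of the 30 tested members under 100 TPM, 12 (40%) were above 0, where 49.1% of the 12015 rows tested at that level were. All 6 members between 50 and 100 TPM were above 0. Of the 24 tested members under 50 TPM, 6 were above 0 and 18 below, with a median of -0.11. The share over all rows under 50 TPM was not computed. The threshold of 100 TPM was not part of the planned comparisons, and that of 50 TPM was chosen after seeing the data.

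**Figure D4:**
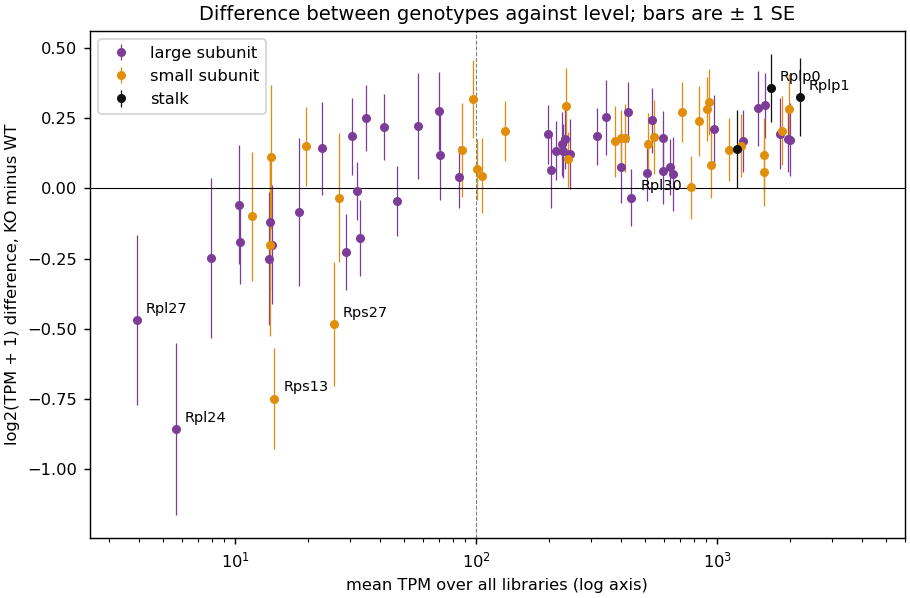
Log2 difference, KO minus WT, of tested members, of which 1 is not drawn (vertical axis, log2(TPM + 1) scale) against its mean TPM (log axis), coloured by subunit or stalk, with bars of 1 SE each way and a dashed line at 100 TPM. Members of at least 100 TPM lie above 0 other than Rpl30, and the lowest differences belong to Rpl24 and Rps13, which average under 50 TPM.

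Every KO library lay above every WT library for 13 of the 81 members (16.0%), where 10.6% of all rows tested did, and below every WT library for 3 (3.70%), where 10.4% of rows did. Of the 51 members of at least 100 TPM, 11 (21.6%) had all KO libraries above all WT libraries, against 14.8% of rows of that level. The remainder of the 51 overlapped mainly through the same pair of libraries. KO 2 was the lowest KO library for 49 of the 51 and WT 1 the highest WT library for 45, and WT 1 lay above KO 2 for 38. KO 1 and KO 3 both lay above all WT libraries for 40 of the 51. Members moved together between libraries within a group as well as between groups, so their counts are not independent.

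**Figure D5:**
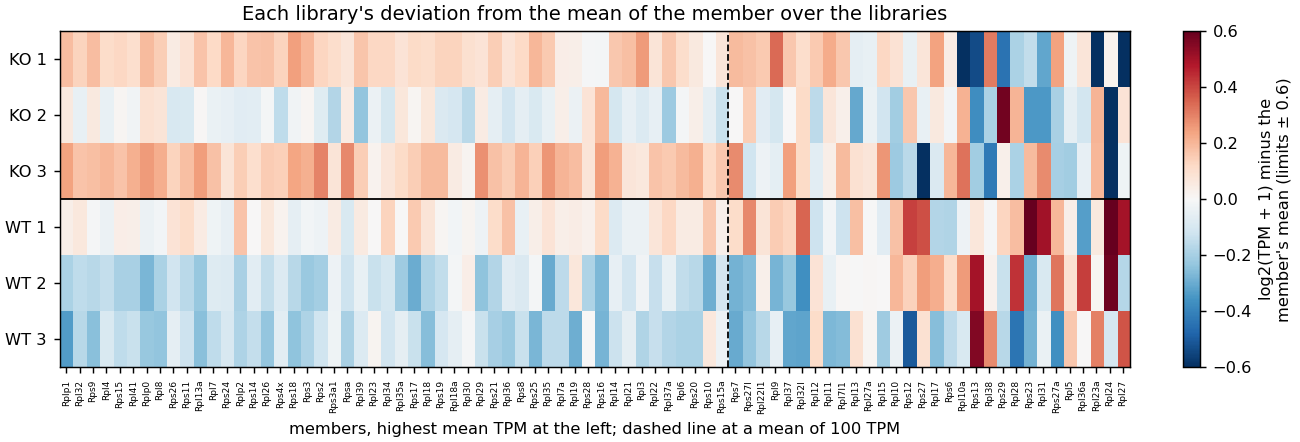
Heat map of the deviation of tested members (1 is not drawn) from their own mean over the 6 libraries (colour, log2(TPM + 1) scale, red above and blue below the mean), with members in columns by falling mean TPM and KO libraries in the rows above WT libraries. Left of the dashed line at 100 TPM, KO 1 and KO 3 are mostly red, WT 2 and WT 3 mostly blue, and KO 2 and WT 1 pale. Right of it this order is not general, though some members just under 100 TPM, such as Rps7 and Rpl37, show it.

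Of all tested members, the stalk genes Rplp0 and Rplp1 had the highest differences. Rplp0 had 1884, 1763 and 1975 TPM in the libraries labelled KO, against 1613, 1369 and 1414 TPM in those labelled WT. Rplp0 (chr5:115559467-115563729 on mm10, plus strand) is the base of the stalk, and it had all 3 KO libraries above all 3 WT libraries. Its means were 1874 ± 107 and 1465 ± 129.9 TPM in KO and WT (1.28-fold, log2 difference 0.36, SE 0.120, limma adjusted p = 0.238). The exact two-sided permutation p was 0.1, the smallest that 3 libraries against 3 allow. Rplp1 had 2485, 2275 and 2586 TPM in the libraries labelled KO, against 2242, 1916 and 1732 TPM in those labelled WT (log2 difference 0.32, SE 0.139, limma adjusted p = 0.317), again with no overlap. Rplp2 had 1318, 1153 and 1337 TPM in the libraries labelled KO, against 1357, 1055 and 1060.3 TPM in those labelled WT (log2 difference 0.14, SE 0.139, limma adjusted p = 0.649). For Rplp2, which pairs with Rplp1 on the stalk, WT 1 was the highest of all 6 libraries, so the groups overlapped, and with 1 library left out the difference ran from 0.078 without WT 2 to 0.26 without WT 1. Rplp0, Rplp1 and Rplp2 did not pass the test.

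Among the small-subunit genes, 27 of the 32 had a difference above 0, with a median of 0.15. Rps18, a protein of the subunit's head, had 1088, 905 and 1080.2 TPM in the libraries labelled KO, against 884, 816 and 777 TPM in those labelled WT (log2 difference 0.31, SE 0.119, limma adjusted p = 0.280). Every KO library was higher, but the transcript has 86.7% of its windows of 50 bases in other genes. Rps3, which lies at the entry of the message, had 1038, 913 and 1048 TPM under the label KO and 893, 775 and 796 TPM under the label WT (log2 difference 0.28, SE 0.113, limma adjusted p = 0.292). Its groups did not overlap, and only 2.96% of its windows were found elsewhere. Rps9 had 2248, 2056 and 2236 TPM in the libraries labelled KO, against 1963, 1762 and 1658 TPM in those labelled WT (log2 difference 0.28, SE 0.122, limma adjusted p = 0.318). Rps9 showed no overlap between the groups, with WT 1 the highest WT library. Rpsa, also known as the laminin receptor, had 748, 735 and 867 TPM in the libraries labelled KO, against 667, 652 and 619.7 TPM in those labelled WT (log2 difference 0.27, SE 0.107, limma adjusted p = 0.285). Here KO 3 stood above the other libraries, and all KO libraries above all WT libraries.

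Among the large-subunit genes, 32 of the 46 tested had a difference above 0, with a median of 0.13. Rpl8, which lies next to the site where peptide bonds form, had 1749, 1662 and 1834 TPM in the libraries labelled KO, against 1559.9, 1384 and 1336 TPM in those labelled WT (log2 difference 0.30, SE 0.117, limma adjusted p = 0.289). Its groups did not overlap, and 7.86% of its windows were found elsewhere. Rpl29 had 448, 437 and 512 TPM in the libraries labelled KO, against 414, 357 and 385 TPM in those labelled WT (log2 difference 0.27, SE 0.108, limma adjusted p = 0.289). Rpl29 also showed no overlap, with KO 3 the highest library. Rpl4 and Rpl32, the most abundant large-subunit members outside the stalk, had differences of 0.18 and 0.17, with adjusted p of 0.508 and 0.544 in limma. Rps15, of the small subunit, had one of 0.21 (adjusted p = 0.447).

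The members with the lowest differences were all listed under 50 TPM, and the counts behind them were small. Rps13 (chr7:116331507-116334190, minus strand), a small-subunit protein, had 9.27, 10.5 and 11.9 TPM in the libraries labelled KO, against 14.7, 20.05 and 20.9 TPM in those labelled WT. All KO libraries were below all WT libraries. Those values stand for 45, 56 and 72 reads under the label KO and 55, 89 and 90 reads under the label WT. The means were 10.6 ± 1.31 and 18.5 ± 3.39 TPM in KO and WT (log2 difference -0.75, SE 0.181, limma adjusted p = 0.162, exact permutation p = 0.1), the smallest adjusted p of any member. As shown above, a stretch of its coding sequence stands letter for letter in 5 pseudogenes, and 82.96% of its windows were found elsewhere.

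Rpl24 (chr16:55966275-55971437, plus strand), which forms a bridge between the subunits, had 5.29, 3.05 and 2.83 TPM in the libraries labelled KO, against 9.80, 8.29 and 4.77 TPM in those labelled WT. The groups overlapped, since KO 1 lay above WT 3. The reads numbered 30, 19 and 20 under the label KO and 43, 43 and 24 under the label WT (log2 difference -0.86, SE 0.305, limma adjusted p = 0.253, exact permutation p = 0.2). With a pseudocount of 5 the difference was -0.52. Rps27 had 26.3, 24.1 and 14.4 TPM in the libraries labelled KO, against 32.9, 29.9 and 26.6 TPM in those labelled WT (log2 difference -0.48, SE 0.221, limma adjusted p = 0.341). Every KO library was below every WT library for Rps27, a zinc-binding protein of the small subunit, but its span overlaps Rps27rt on the same strand. Its row is typed protein-coding, but the RefSeq identifier listed for it is of the non-coding kind. The level may thus not be that of the coding message. KO 3 was far the lowest, and with 1 library left out the difference ran from -0.64 without KO 1 to -0.23 without KO 3.

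The other members of this group had smaller differences, several of which moved by over 1.5 times when 1 library was left out, and these are given with their lowest and highest value. Rpl10, which in yeast joins the large subunit late and makes it ready to work, averaged 26.4 ± 3.43 and 31.01 ± 2.77 TPM in KO and WT (difference -0.23), and 92.1% of its windows were found elsewhere. Rpl27 averaged 3.15 ± 1.19 and 4.67 ± 1.30 TPM in KO and WT (difference -0.47, -0.67 without WT 2 to -0.21 without KO 1, and -0.25 with a pseudocount of 5). Rpl13 averaged 31.00 ± 4.42 and 35.02 ± 2.30 TPM in KO and WT (difference -0.18, -0.27 without KO 3 to -0.068 without KO 2). Rpl5, which with Rpl11 binds Mdm2 when ribosome assembly fails, averaged 9.67 ± 0.706 and 11.2 ± 0.549 TPM in KO and WT (difference -0.19), with all KO libraries below all WT libraries. Rpl11 went the other way, at 44.8 ± 3.20 and 38.4 ± 3.73 TPM in KO and WT (difference 0.22), with all KO libraries above; it is named after its values were seen. Rpl31, which lies where the new chain leaves the large subunit, averaged 12.5 ± 3.51 and 15.03 ± 3.88 TPM in KO and WT (difference -0.25, -0.45 without KO 3 to -0.059 without WT 1). Rpl5 overlaps Fam69a, and Rpl31 overlaps Tbc1d8, on the opposite strand.

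Paralogs, genes named as relatives of another member, were set beside their partners, again with the lowest and highest difference when 1 library was left out. Rpl22, which mouse T cells need to develop, averaged 223 ± 17.3 and 204 ± 17.3 TPM in KO and WT (difference 0.13, 0.082 without KO 3 to 0.20 without WT 1), and its paralog Rpl22l1 averaged 86.1 ± 7.48 and 83.7 ± 7.38 TPM (difference 0.04, -0.033 without WT 3 to 0.088 without WT 1, and 0.082 with voom). The ratio of Rpl22l1 to Rpl22 was 0.421, 0.393 and 0.345 in the libraries labelled KO, against 0.399, 0.447 and 0.389 in those labelled WT, so the groups overlapped. Rps27l, a target of p53, averaged 90.9 ± 10.1 and 83.6 ± 19.03 TPM in KO and WT (difference 0.14, 0.041 without WT 2 to 0.31 without WT 1). Its ratio to Rps27 was 3.72, 3.97 and 5.49 under the label KO, against 3.20, 2.40 and 2.75 under the label WT, without overlap, and Rps27 itself was lower in every KO library. The limits given above for the row of Rps27 hold for this ratio too, and no share over other pairs of genes was computed. Rpl7l1 averaged 37.8 ± 2.25 and 31.7 ± 3.02 TPM in KO and WT (log2 difference 0.25, SE 0.117, limma adjusted p = 0.348), with all KO libraries above all WT libraries, and Rpl7 had a difference of 0.17.

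The paralogs best known from other tissues were at or near 0. Rpl3l, a gene of muscle, and Rpl10l, a gene of the testis, were listed at 0 in all 6 libraries, while Rpl3 averaged 240.0 ± 28.6 and 214 ± 12.7 TPM in KO and WT (difference 0.16, 0.068 without KO 1 to 0.24 without KO 2). Rpl39l, another testis gene, had 0.591, 0.808 and 0.355 TPM in the libraries labelled KO, against 1.15, 0.646 and 2.001 TPM in those labelled WT. That is 4, 6 and 3 reads under the label KO and 6, 4 and 12 reads under the label WT, while Rpl39 averaged 672 ± 100.3 and 644 ± 31.96 TPM (difference 0.05, -0.019 without KO 1 to 0.18 without KO 2, and 0.092 with voom). Rps4x, on the X chromosome, had a difference of 0.08 (0.032 without KO 3 to 0.18 without KO 2, and 0.12 with voom). Rps27a, made as a fusion with ubiquitin, averaged 11.2 ± 2.24 and 12.2 ± 3.12 TPM in KO and WT (difference -0.10, -0.31 without WT 3 to 0.036 without WT 2).

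The promoters of the members shared features that the choice by name did not use. RefSeq promoters on GRCm38.p6, from 250 bases before to 50 after the annotated start, were given for 64 of the 84 members and for 27018 genes in all. The annotated start was a C followed by at least 4 pyrimidines, the TOP pattern, for 14 of 64 members (21.9%), against 3.01% of all genes. A run of at least 8 pyrimidines within 25 bases of the start, a wider pattern chosen after seeing the data, was found for 34 members (53.1%), against 22.3% of all genes. The ETS motif CCGGAAG, on either strand, was found in 26 member promoters (40.6%), against 9.93% of all genes. The YY1 motif AAGATGGC, on either strand, was found in 6 (9.38%), against 3.19%. Such a match is a description of letters and not a site of binding.

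The windows below run from 60 bases before to 20 bases from the RefSeq start onward, on GRCm38.p6, written 5′ to 3′. The capitals mark the longest run of C and T near the start. They set abundant members with high differences (Rplp0, Rps18) and Rplp2 beside the 3 members of lowest p among those below 0 (Rps13, Rpl24, Rps27).
Rplp0 (chr5:115559407-115559486, plus strand): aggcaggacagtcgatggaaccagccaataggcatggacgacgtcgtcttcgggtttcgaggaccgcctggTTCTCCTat
Rps18 (chr17:33955646-33955725, minus strand): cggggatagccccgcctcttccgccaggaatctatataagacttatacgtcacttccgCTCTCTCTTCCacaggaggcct
Rplp2 (chr7:141447591-141447670, plus strand): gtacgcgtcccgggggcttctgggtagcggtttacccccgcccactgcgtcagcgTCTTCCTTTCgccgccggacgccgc
Rps13 (chr7:116334171-116334250, minus strand): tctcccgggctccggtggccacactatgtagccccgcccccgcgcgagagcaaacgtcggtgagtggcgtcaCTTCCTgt
Rpl24 (chr16:55966215-55966294, plus strand): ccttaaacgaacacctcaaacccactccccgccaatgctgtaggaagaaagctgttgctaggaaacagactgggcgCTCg
Rps27 (chr3:90213629-90213708, minus strand): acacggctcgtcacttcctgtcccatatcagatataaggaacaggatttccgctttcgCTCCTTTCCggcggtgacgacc
Rps18, Rplp2 and Rps27 had the TOP pattern at the annotated start, and Rplp0, Rps13 and Rpl24 did not. The pattern was scored at that base only, so a TOP start at a nearby base would be missed. Rplp0 had a run of 7 pyrimidines that began 11 bases after it, and Rps13 a run of 6 that began 12 bases after it. Whether the pattern goes with the differences was not tested.

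Other genes of ribosome production and translation are given by counts, and none of them passed the test in limma. The lists of this and the following paragraphs stand beside the shares over all rows tested. Of those rows, 49.5% were above 0, and 7.8% were higher and 7.86% lower at an unadjusted limma p under 0.05. Of 34 ribosome biogenesis factors, 24 were above 0 (median 0.09), and 2 were higher and 0 lower at an unadjusted p under 0.05. Eif6, which keeps new large subunits from joining too early, averaged 107 ± 3.69 TPM under the label KO and 81.9 ± 2.98 TPM under the label WT (difference 0.38, adjusted p = 0.152). Rrp9, a protein of ribosomal RNA processing, had a difference of 0.34. Of 24 other genes with a TOP start, 18 were above 0 (median 0.10), and 0 were higher and 2 lower at an unadjusted p under 0.05, Eif4a2 at -0.31 and Vim at -0.32. Of 26 initiation factors without a known TOP start, 20 were above 0 (median 0.11), and none was past that p in either direction. Values above 0 outnumbered those below in each of the lists of this paragraph. Whether a TOP start plays a part was not tested.

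In the lists of RNA polymerases I and III, the mTOR pathway, MYC and ribosome rescue, values below 0 outnumbered those above. Of 19 genes of RNA polymerases I and III, 7 were above 0 and 12 below (median -0.11), with 0 higher and 1 lower at an unadjusted p under 0.05, Polr3a at -0.45. Of 22 genes of the mTOR pathway, 9 were above 0 and 13 below (median -0.01), with Lamtor1, which anchors mTOR at the lysosome, at 0.27 and Tsc1, which inhibits mTOR, at -0.44, the only genes of that list past that p. Of 10 tested genes of MYC and its partners, 3 were above 0 and 7 below (median -0.19), with 2 higher and 2 lower at that p, among them Mlx at 0.27 and Mlxip at -0.49. Of 14 genes of ribosome rescue and stress, 4 were above 0 and 10 below (median -0.13), with 0 higher and 3 lower at that p, among them Hbs1l, which frees stalled ribosomes, at -0.51 and Gtpbp2 at -0.35. The mitochondrial ribosomal protein genes, which build the ribosome of the mitochondrion, had 53 of 78 above 0 (median 0.10), with 3 higher and 3 lower at that p. A difference between them and the cytosolic members was not tested.

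Markers of cell types also differed between the libraries and are given beside these values. All 12 Treg and T cell markers were tested, and 10 were below 0, of which 6 were lower at an unadjusted p under 0.05. Their summed TPM was 5769, 5175 and 5545 in the libraries labelled KO, against 6703, 7527 and 6901 in those labelled WT. All 17 epithelial markers were above 0, 11 of them at that p, with sums of 4205, 6833 and 3703 TPM under the label KO and 3532, 2390.1 and 2668 TPM under the label WT. KO 2, the lowest KO library in ribosomal protein TPM, had the highest epithelial sum, and WT 1, the highest WT library, had the highest epithelial sum among WT. Of 11 macrophage and dendritic cell markers 10 were above 0, with sums of 941, 1571 and 874 TPM in KO and 833, 866 and 1357 TPM in WT, and the 9 B and plasma cell markers summed to 2136, 1419 and 568 TPM in KO and 1584, 1497 and 744 TPM in WT.

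The remaining lists are given by their sums. The 8 neutrophil markers, 4 of them tested, summed to 14.05, 36.8 and 42.5 TPM under the label KO and 6.37, 5.02 and 11.6 TPM under the label WT, with S100a8 at 0 in all WT libraries. The 12 fibroblast, muscle and endothelial markers summed to 577, 500.5 and 329 TPM in KO and 259, 396 and 532 TPM in WT, and the 8 markers of CD8 T, NK and gamma delta T cells to 18.3, 20.3 and 11.7 TPM in KO and 28.5, 17.3 and 12.7 TPM in WT. The 7 red blood cell genes summed to 0, 0.237 and 0 TPM in KO and 10.9, 68.1 and 38.02 TPM in WT. The tested globin rows, Hbb-b1 and Hbb-bs, were at 0 in every KO library. In WT they had 5.13, 21.479 and 10.653 TPM and 5.065, 21.208 and 10.519 TPM, nearly the same proportion in each library. These rows may thus count the same reads, and the sum may count such reads more than once. Of 5 nuclear-retained transcripts, Malat1 averaged 288 ± 38.9 TPM in KO and 546 ± 43.3 TPM in WT, and the list summed to 445, 493 and 455 TPM in KO and 788, 1014 and 885 TPM in WT. The part of other cells, of depth and of nuclear RNA in the values of the ribosomal protein genes was not tested.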

How the data were processed

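The authors deposited TPM values (abundance per transcript length and library size) in 1 table of 24537 RefSeq transcripts, which also holds coordinates and length, per the file headers. FastQC 0.11.8, Trim Galore 0.4.4, STAR 2.5.3a, HOMER 4.9.1 and the build mm10 come from the submitters' processing notes. A stranded poly(A) kit was used on 1.3 µg of RNA, per the labels' protocols; the sources used here do not say whether strand was used or how reads with several matches were counted.

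Members and lists were chosen with earlier results of these data known. Rows with TPM of at least 1 in at least 3 libraries (13211) were tested on log2(TPM + 1) with limma 3.58.1 (R 4.3.3), two-sided, with a variance trend, Benjamini-Hochberg adjusted over all rows, threshold 0.05. Fold changes on that scale understate those of low genes. TPM times length gave whole reads (99.99 to 100% of values up to 500 reads within 0.1), which entered voom. Named were the 8 members of smallest p in each direction, the 5 highest, the 3 lowest above 0 (Rpl39l, Rpl27 and Rpl24), stalk genes, paralogs and their partners, Rps27a, Rpsa, and up to 2 genes of each other list. The script was tested on simulated data. The values of 1 member enter the counts, sums and medians but are not reported here.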

Additional observations from a re-analysis of the deposited data

How the results depend on the processing

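No member had an adjusted p under 0.05 in any of the 15 alternatives run (pseudocount, filter, variance trend, scaling, voom, replicate block, or 1 library left out), and the smallest among the named members was 0.0922. Of the 434 values of the 29 named and tested members, 429 kept their direction and 5 turned: Rpl22l1 to -0.029 without KO 1 and -0.033 without WT 3 (range over libraries left out -0.033 to 0.0885), Rpl39 to -0.019 without KO 1 and -0.01 without KO 3 (range -0.019 to 0.181), and Rps27a to 0.036 without WT 2 (range -0.31 to 0.036). The 8 members higher at an unadjusted p under 0.05 became 1 with no filter, 2 with no variance trend, 15 with voom and 3 with the replicate number as a block (6.5% of all rows), and ranged from 0 to 23 with 1 library left out; the cause was not tested. The 2 lower became 1 with voom and 3 with the block (7.27% of all rows), and ranged from 1 to 3. The labels do not say whether the replicate number pairs the libraries. Deviations from the group mean correlated at -0.02, -0.25 and -0.05 for same-numbered libraries, and at -0.11 to 0.17 for differently numbered ones. With 3 libraries in a group these deviations are tied to each other, so the correlations cannot show whether libraries were paired. Depth limits Rps13 and Rpl24, which rest on between 19 and 90 reads a library. The difference in shared windows between members under 50 TPM and those of at least 100 TPM, examined after seeing the data, was 12.8 percentage points at 36 bases, 18.02 at 50, 22.8 at 75 and 31.7 at 100.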
